A study of Mus musculus with 8 samples.

Results

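Dcx, Sox11, Sox4, Igfbpl1, Eomes, Neurod1, Draxin and Calb2 are genes used to recognise the making of new neurons in the adult brain. They were taken by symbol, and all 8 were found among the 32285 genes of the count matrices. Their levels were followed across cell types in 2 mouse brain regions, anterior hippocampus and caudate putamen, and across age in the hippocampus, where the question was whether nuclei that express them become fewer. Nuclei came from left-hemisphere tissue punches, taken from C57BL/6JN mice aged 3 months (young) or 21 months (old), with no treatment or engineered allele named in the labels. Each group (young hippocampus, old hippocampus, young caudate putamen, old caudate putamen) had 2 libraries, and every library pooled sorted nuclei of 1 male and 1 female of the same age. The labels do not say whether both regions came from the same animals, nor that libraries of 1 group came from different preparations, so the p-values measure the spread between these libraries.

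In the adult dentate gyrus of the hippocampus, radial stem cells that resemble astrocytes give rise to dividing progenitors, these to neuroblasts, and these to immature and then mature granule neurons. Most neuroblasts are born early in life and the process declines with age. A separate stem cell zone lines the lateral ventricle beside the caudate putamen, and its neuroblasts carry Dlx genes rather than those of the granule lineage. Eomes (Tbr2) is the transcription factor of intermediate progenitors, and Neurod1 is a basic helix-loop-helix factor of granule cell differentiation. Sox4 and Sox11 are transcription factors of newly committed neurons. Dcx (doublecortin) is a microtubule-binding protein of migrating neurons, Igfbpl1 encodes a secreted protein related to the binding proteins of insulin-like growth factors, Draxin is a secreted axon guidance cue, and Calb2 (calretinin) is a calcium-binding protein of early postmitotic granule neurons. Several are also made by other cells, such as Dcx in interneurons and Calb2 in mossy and Cajal-Retzius cells.

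In GRCm38 with the GENCODE vM21 annotation, Dcx (ENSMUSG00000031285) lies on the minus strand at chrX:143855842-143933311. Sox11 (ENSMUSG00000063632) lies at chr12:27334264-27342574 and Sox4 (ENSMUSG00000076431) at chr13:28948919-28953713, both on the minus strand. Igfbpl1 (ENSMUSG00000035551) and Draxin (ENSMUSG00000029005) are minus-strand genes of chromosome 4, at chr4:45809468-45826923 and chr4:148098437-148130698. Eomes (ENSMUSG00000032446) is a plus-strand gene at chr9:118478212-118486132. Neurod1 (ENSMUSG00000034701) at chr2:79452521-79456751 and Calb2 (ENSMUSG00000003657) at chr8:110137502-110168210 lie on the minus strand. Neurod1 lies within the span of Cerkl on the same strand, so reads of both cannot always be told apart. Sox4 overlaps Gm26735, Eomes overlaps Gm33460, Neurod1 overlaps Gm26755 and Draxin overlaps Mad2l2, each on the opposite strand, and strand handling by the counting step is not given in the sources used here.

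The promoters of Sox11, Sox4 and Draxin are shown because all 3 genes were highest or near highest in young neuroblast-like nuclei and each holds the E-box CAGCTG, a sequence recognised by proneural basic helix-loop-helix factors. RefSeq entries (GRCm38.p6) were found for 6 of the 8 genes. The 250 bases before the annotated start were searched on both strands for the E-box CAGCTG, for a related E-box read as CATATG, and for the SOX-type hexamer ACAAAG, which reads as CTTTGT on the other strand. Capitals mark the matches, and positions count back from the start.
Sox11, chr12:27342719-27342968, minus strand: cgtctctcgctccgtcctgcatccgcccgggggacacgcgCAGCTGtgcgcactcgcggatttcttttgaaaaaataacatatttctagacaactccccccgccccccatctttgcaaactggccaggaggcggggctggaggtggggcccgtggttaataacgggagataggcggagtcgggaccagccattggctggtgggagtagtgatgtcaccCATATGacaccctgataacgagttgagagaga
Sox4, chr13:28953700-28953949, minus strand: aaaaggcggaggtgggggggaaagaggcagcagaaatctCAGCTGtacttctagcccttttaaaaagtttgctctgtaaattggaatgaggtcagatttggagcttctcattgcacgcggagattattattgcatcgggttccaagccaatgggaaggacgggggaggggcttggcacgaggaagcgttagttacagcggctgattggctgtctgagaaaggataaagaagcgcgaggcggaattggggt
Draxin, chr4:148130699-148130948, minus strand: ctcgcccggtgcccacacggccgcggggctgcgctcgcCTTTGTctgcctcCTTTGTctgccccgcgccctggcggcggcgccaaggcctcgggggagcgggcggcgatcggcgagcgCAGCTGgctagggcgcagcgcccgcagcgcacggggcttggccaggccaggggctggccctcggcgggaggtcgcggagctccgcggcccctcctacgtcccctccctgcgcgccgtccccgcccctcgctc

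CAGCTG began at -210 in Sox11, -211 in Sox4 and -132 in Draxin. Sox11 also held CATATG at -32, and Draxin held CTTTGT at -212 and -199. Of 32851 RefSeq promoters of the same length, 4271 (13%) held CAGCTG, 3.46% CATATG and 16.5% the SOX-type hexamer, so such matches are common. Neurod1 held CATATG at -242, 1 of the 2 Dcx starts held ACAAAG at -8, and Eomes held no match in this window.

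The libraries held 67205436 to 234811422 UMIs (unique molecular identifiers, each counting 1 captured RNA molecule), and 6387 to 17012 nuclei per library were retained, 97740 in all. Median depth was 6664 to 11275 UMIs per nucleus. Called doublets were 2.52% to 15.6% of barcodes, most in young hippocampal replicate 2, the library with the most UMIs in total. Libraries shared 0.266% to 0.548% of the smaller library's barcodes. The hippocampal label fitted its defining markers: dentate granule-like nuclei made up 42.1% and 50.5% of young libraries and 41.7% and 48.4% of old ones. CA1 pyramidal-like nuclei made up 7.98% and 6.53% of young but 3.11% and 3.07% of old libraries, and oligodendrocyte-like nuclei 10.7% and 9.15% against 15.6% and 17.9%.

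Across all hippocampal nuclei, Igfbpl1 fell about 10.6-fold between 3 and 21 months, whereas no other member passed the test. Igfbpl1 stood at 1.92 and 1.75 counts per 1000000 UMIs (CPM) in the young libraries (195 and 326 UMIs) and at 0.202 and 0.140 CPM in the old (17 and 9 UMIs). The log2 fold change was -3.41 (SE 0.21, edgeR quasi-likelihood test, Benjamini-Hochberg adjusted p = 0.00689). In this comparison 0.0221% of the 22581 genes tested were called lower and 0.137% were called in either direction, and of the 7 members tested 1 was called, lower. The direction held without any 1 hippocampal library (log2 -3.70 to -3.21), but the edgeR adjusted p was then 0.0885 to 0.103, whichever of the 4 was left out. A sum over all nuclei cannot tell fewer cells of a type from less RNA per cell.

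The lineage factors and structural genes differed less. Dcx stood at 23.1 and 25.5 CPM in young and at 17.95 and 18.25 CPM in old hippocampus (log2 -0.44, SE 0.16, edgeR adjusted p = 0.302). Sox11 stood at 17.8 and 20.8 CPM against 16.5 and 14.3 CPM (log2 -0.34, SE 0.16, edgeR adjusted p = 0.396). Sox4 stood at 6.66 and 5.94 CPM against 4.78 and 5.55 CPM (log2 -0.30, SE 0.15, edgeR adjusted p = 0.416). For each of these 3 genes the old libraries lay below both young ones, without passing the test. Draxin stood at 0.542 and 0.590 CPM in young and 0.2495 and 0.326 CPM in old libraries (log2 -0.999, SE 0.36, edgeR adjusted p = 0.307). Calb2 stood at 1.26 and 1.52 CPM against 1.06 and 1.12 CPM (log2 -0.37, SE 0.21, edgeR adjusted p = 0.450). Neurod1, which mature granule neurons keep, was the only member whose groups overlapped, at 4.85 and 6.90 CPM against 5.10 and 5.26 CPM (log2 -0.20, SE 0.38, edgeR adjusted p = 0.840). Eomes was too rare to test, with 12 and 14 UMIs in young libraries and 4 and 2 in old ones. Groups of 7 members, all but Neurod1, did not overlap and were lower in old libraries, where 23.7% of the genes tested did the same. The median log2 fold change of the 7 tested members, with Neurod1 and without Eomes, was -0.37 against -0.01 for all genes. The members were chosen with earlier results of these data known, so neither value is a test of the members as a set.

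**Figure D1:**
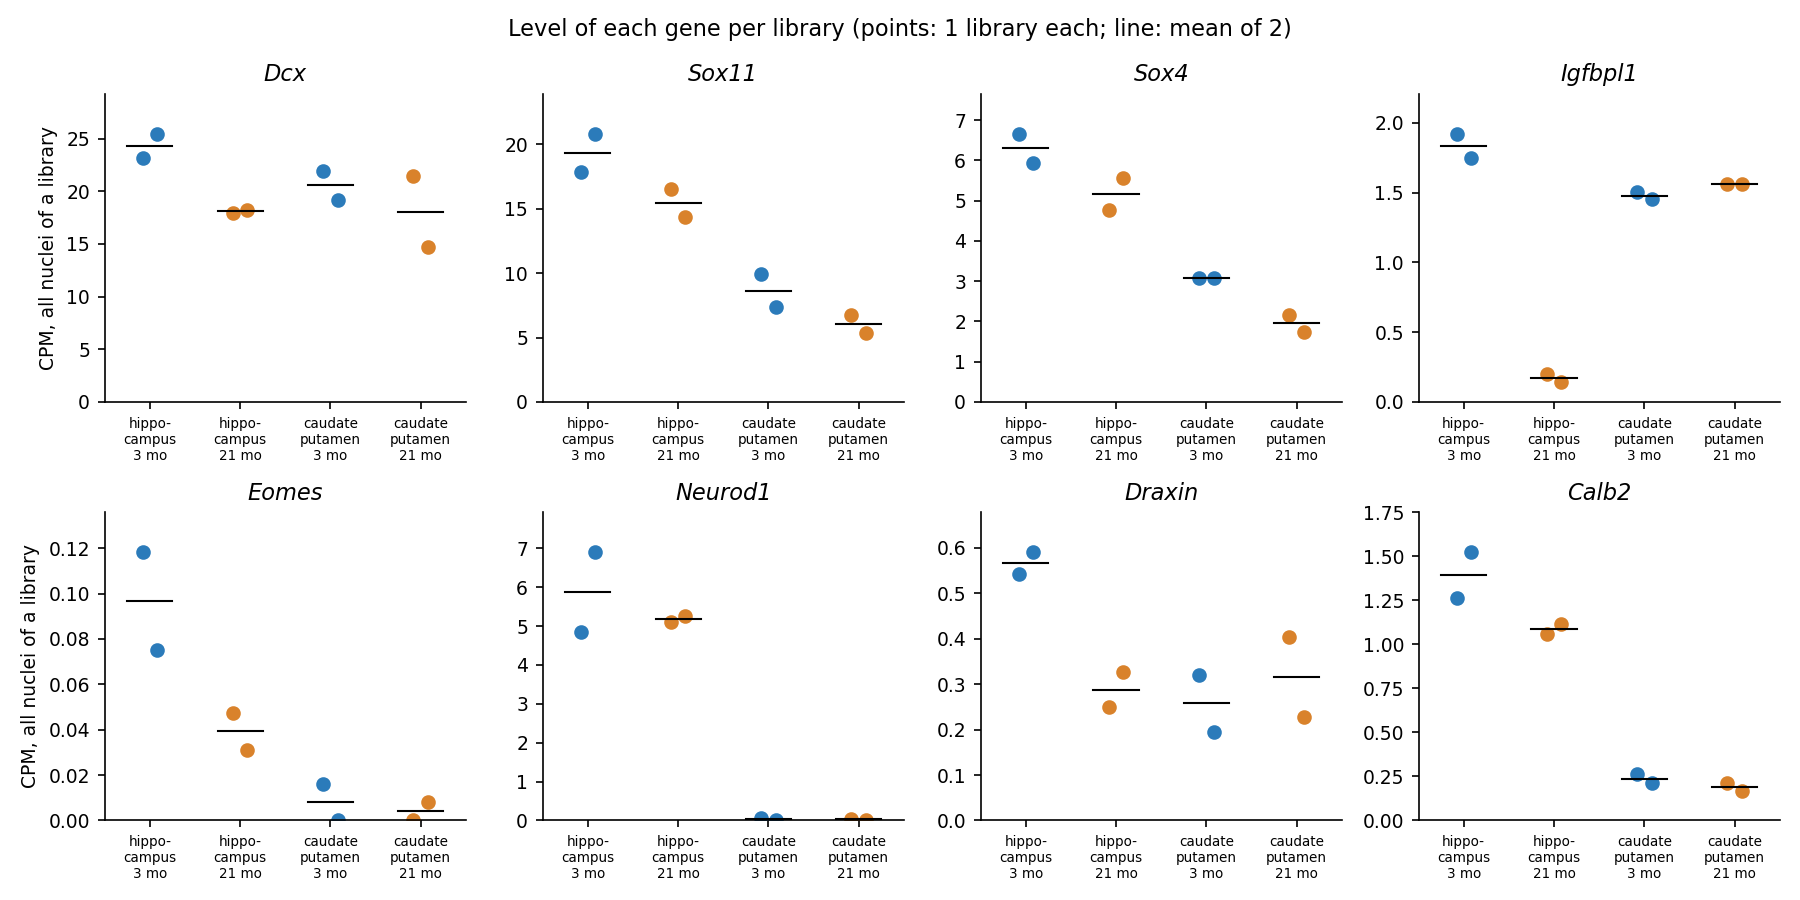
Level of each gene summed over all nuclei of a library, in CPM (linear axis from 0), by region and age. Each point is 1 library and each line the mean of 2. Igfbpl1 is near 0.2 CPM or below in both old hippocampal libraries and between 1.4 and 2 CPM in the other 6, while Neurod1 and Eomes are near 0 in the caudate putamen.

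Counting nuclei rather than molecules gave a similar order. A nucleus was counted as positive for a gene with at least 1 UMI after thinning to 2000 UMIs, so that depth was equal. Shallower nuclei were left out, which kept 9821 of 10312 and 15923 of 17012 young and 8313 of 8583 and 6141 of 6387 old hippocampal nuclei, but only 907 of 1102, 1333 of 1556, 1216 of 1337 and 1023 of 1142 oligodendrocyte-like nuclei. Igfbpl1-positive nuclei numbered 43 of 9821 and 70 of 15923 in young hippocampus (0.438% and 0.440%), and 2 of 8313 and 1 of 6141 in old (0.0241% and 0.0163%). This fall was called (log2 -4.33, SE 0.46, edgeR adjusted p = 0.0206), as 1 of 7 members tested, where 0.0627% of 19152 genes were called lower and 0.131% either way. Without 1 hippocampal library at a time the log2 value was -4.67 to -4.13 and the edgeR adjusted p 0.0926 to 0.298. In oligodendrocyte-like nuclei, which should lack the gene and are shallower (median 2980.5 to 3363 UMIs), 0.110% and 0.375% of young and none of the old thinned nuclei were positive.

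Dcx-positive nuclei made up 4.03% and 4.22% of young and 2.48% and 2.30% of old thinned nuclei (log2 -0.79, SE 0.15, edgeR adjusted p = 0.0831). The share passed the threshold when the replicate number was added as a block (edgeR adjusted p = 0.0126), without the filter on rare genes (adjusted p = 0.0120), or without old caudate putamen replicate 1 or 2 (adjusted p = 0.0298 and 0.0283). It did not pass when nuclei were thinned to 4000 UMIs (edgeR adjusted p = 0.186), with at least 2 UMIs asked of a nucleus (adjusted p = 0.634) or without any 1 hippocampal library (adjusted p = 0.119 to 0.558). In oligodendrocyte-like nuclei the Dcx-positive share was 0.882% and 1.50% in young and 0.164% and 0.587% in old. Sox11-positive nuclei made up 3.14% and 3.99% against 2.35% and 2.34% (log2 -0.61, SE 0.18, edgeR adjusted p = 0.223). Sox4 was nearly level, at 1.56% and 1.41% against 1.35% and 1.38% (log2 -0.12, SE 0.17, edgeR adjusted p = 0.776). Neurod1-positive nuclei made up 1.03% and 1.63% against 0.866% and 0.928%, and oligodendrocyte-like nuclei reached 0.882% and 1.80% against 0.411% and 0.978%; the share of all nuclei was below the latter in young replicate 2 and old replicate 2. Draxin (0.244% and 0.176% against 0.108% and 0.0326%) and Calb2 (0.255% and 0.345% against 0.168% and 0.179%) were rare at both ages, and neither passed the test (edgeR adjusted p = 0.361 and 0.340). In oligodendrocyte-like nuclei the Draxin shares were 0.331% and 0.225% against 0.247% and 0.0978%, above the whole library each time. Their summed Draxin (1.05 to 1.95 CPM) stood above that of dentate granule-like nuclei (0.0207 to 0.238 CPM), so they were not taken as free of Draxin. Calb2 shares there were 0.221% and 0.225% against 0.0822% and 0.293%, above the whole library in old replicate 2 only. Neither whole-library share is read as expression by new neurons, and where these UMIs came from was not tested. For all 8 members both old shares lay below both young shares, where 26.1% of the genes tested did the same. This count includes Eomes, which was too rare to test, with 3 and 3 positive young nuclei and 1 and 1 old. Its shares were 0.0305% and 0.0188% against 0.0120% and 0.0163%. Neurod1, Draxin and Calb2 are also counted, with the limits given above, so the count is not read as a loss of new neurons.

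Nuclei were also counted at full depth. Dcx UMIs were found in 1443 and 2779 young nuclei (14.0% and 16.3%) and in 818 and 642 old nuclei (9.53% and 10.1%). In oligodendrocyte-like nuclei, at less than the depth of the whole library (median 2980.5 to 3363 against 7544 to 8556.5 UMIs), the share was 0.907% and 2.12% young and 0.224% and 0.963% old. Igfbpl1 UMIs were found in 106 and 224 young nuclei (1.03% and 1.32%) and in 14 and 6 old nuclei (0.163% and 0.0939%). Nuclei with 3 or more Dcx UMIs overlapped in share between young and old libraries, at 194 and 475 (1.88% and 2.79%) against 166 and 118 (1.93% and 1.85%). Of these, 19 and 25 young and 0 and 0 old nuclei were neuroblast-like. Their largest class was dentate granule-like in both young libraries (44 and 123). It was unnamed in old replicate 1 (71) and interneuron-like in old replicate 2 (40). Nuclei with 3 or more Igfbpl1 UMIs numbered 24 and 28 in young and 1 and 1 in old libraries, and 20 and 19 of the young ones were neuroblast-like.

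A neuroblast-like class was defined without the 8 members: they were left out of the clustering and out of the naming markers, among them Sema3c, Dpysl3, Dpysl5, St8sia2 and Tubb2b. It held 158 of 10312 and 187 of 17012 young nuclei (1.53%, exact 95% binomial interval 1.30% to 1.79%, and 1.10%, 0.948% to 1.27%). In old hippocampus it held 29 of 8583 and 9 of 6387 nuclei (0.338%, 0.226% to 0.485%, and 0.141%, 0.0645% to 0.267%). All of these old nuclei fell in an astrocyte-like cluster at the finer clustering described below. The intervals and the limits for counts of 0 cover counting error only. The mean share was 1.32% ± 0.306 (SD, n = 2) in young and 0.239% ± 0.139 (SD, n = 2) in old libraries, 1.08 percentage points lower, without overlap. An exact two-sided permutation test gave p = 0.333, the smallest that 2 libraries against 2 allow. In the finer clustering (Leiden resolution 2.0) the class made up 0.689% and 0.605% of young libraries and 0% of both old ones. CA1 pyramidal-, interneuron-, Cajal-Retzius- and mossy-like shares were also lower in both old libraries than in both young ones. No neuroblast-like class was found in the caudate putamen.

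Each of the 8 members had UMIs in this class in both young libraries, and 0 to 2 UMIs in each old library. Igfbpl1 had 124 and 137 UMIs in the young neuroblast-like nuclei (161 and 124 CPM) and 0 and 0 in the old. Dcx had 126 and 171 UMIs against 0 and 1, and Sox11 had 121 and 187 against 0 and 0. Positive young nuclei made up 31.6% and 41.2% of the class for Dcx, 33.5% and 45.5% for Sox11, and 30.4% and 35.3% for Igfbpl1. At the finer clustering described below, 87 and 82 of the young nuclei fell in an astrocyte-like cluster almost without Dcx. The shares and levels of the class are therefore those of a mixed class. Among the factors of earlier stages, Eomes had 7 and 10 UMIs in the young class and none in the old, and Neurod1 had 14 and 29 against 0 and 1. Outside the class, unnamed clusters held 4 of 4 and 1 of 2 old Eomes UMIs. They also held 7 of 17 and 2 of 9 old Igfbpl1 UMIs, against 16 of 195 and 31 of 326 young ones. Eomes was detected in only 3.80% and 2.14% of the young class, Calb2 in 3.16% and 5.35%, and Neurod1 in 7.59% and 12.8%. Draxin had 33 and 40 UMIs against 0 and 0. Sox4 (35 and 45 against 2 and 1) and Calb2 (10 and 20 against 1 and 0) kept single UMIs in old nuclei. With 29 and 9 old nuclei, a gene at 0 UMIs could still be detected in up to 10.3% and 33.3% of them, and the class was too small in old replicate 2 to be tested for expression.

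Genes of radial stem cells and astrocytes were found in the class together with the members, and a finer clustering split it. At Leiden resolution 2.0 it fell into a neuroblast-like cluster of 174 nuclei (71 and 103 young, 0 and 0 old) and an astrocyte-like cluster of 207 nuclei (87 and 82 young, 29 and 9 old). The astrocyte-like cluster carried Hopx, a gene of radial stem cells (102 and 85 young UMIs, 67 and 10 old), and Slc1a3, a glutamate transporter of astrocytes and radial stem cells (1249 and 1269 young, 588 and 164 old). Dcx was almost absent from it (0 and 2 young UMIs, 0 and 1 old). All 38 old nuclei of the class therefore sat in this astrocyte-like cluster. Whether its nuclei were stem cells or other astrocytes was not tested. Dlx1 and Dlx2, which mark ventricular neuroblasts, had 1 UMI or none in each library of the class, while Prox1, the factor of the granule lineage, had 378 and 661 UMIs in the young nuclei. Top2a, a gene of dividing cells, had 36 and 16 UMIs in the young class and 0 in the old.

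**Figure D2:**
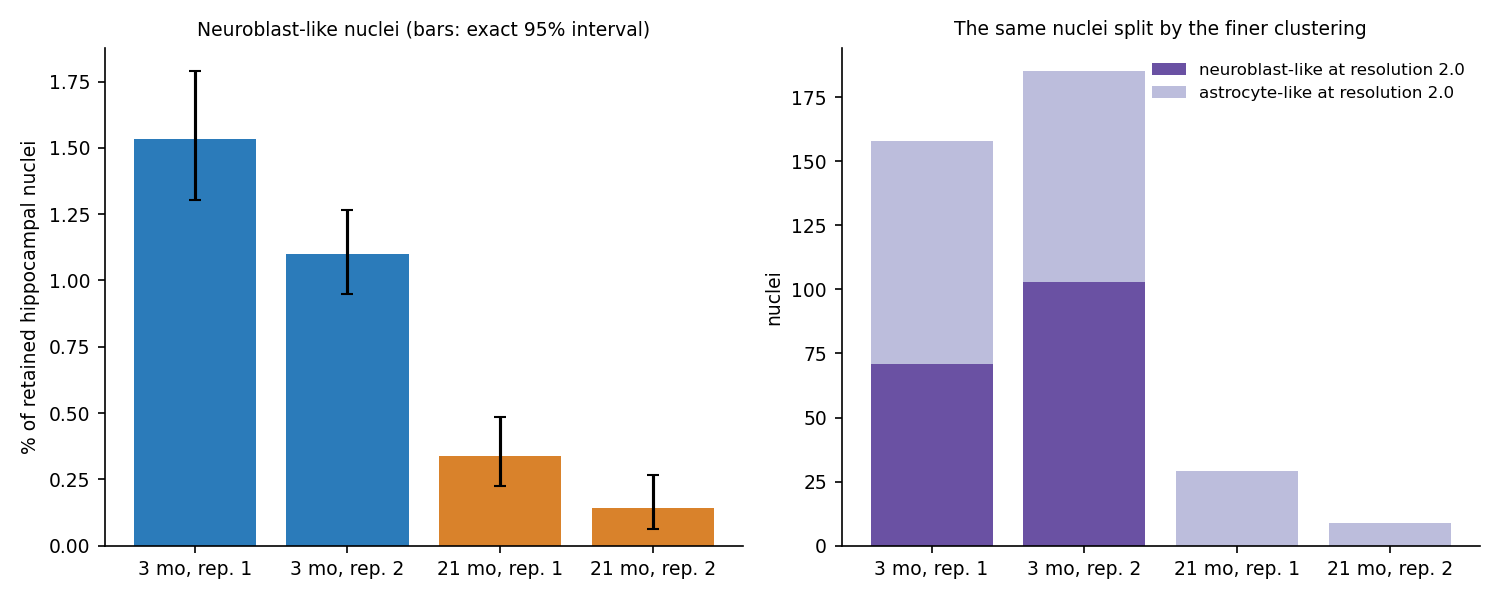
Left, neuroblast-like nuclei as % of retained hippocampal nuclei in each library, with exact 95% binomial intervals. Right, the same nuclei (number) split by the finer clustering at resolution 2.0: the neuroblast-like cluster holds 71 and 103 young nuclei and no old one, and 2 nuclei of young replicate 2 that fell elsewhere are not drawn.

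Dcx and Sox11, the pair met most often, were detected together in 325 and 762 young and 205 and 123 old hippocampal nuclei. These were 22.5% and 27.4% of young and 25.1% and 19.2% of old Dcx-positive nuclei. Dcx and Igfbpl1 were detected together in 52 and 89 young nuclei, 35 and 48 of them neuroblast-like and 9 and 24 dentate granule-like. In old hippocampus they met in 6 and 3 nuclei, none of them neuroblast-like. Igfbpl1 joined Dcx in 49.1% and 39.7% of its young nuclei, and in 42.9% and 50% of its 14 and 6 old nuclei. The young nuclei with both made up only 3.60% and 3.20% of all young Dcx-positive nuclei, because Dcx was spread over many classes. Eomes UMIs met Dcx in 8 of 10 and 7 of 8 young nuclei. At equal depth, nuclei with 3 or more of the 8 members numbered 19 and 14 in young libraries (18 and 14 neuroblast-like) and 0 and 1 in old. At full depth, 3 or more members met in 125 and 281 young nuclei (1.21% and 1.65%) and in 46 and 33 old nuclei (0.536% and 0.517%), 42 and 61 of the young and none of the old being neuroblast-like. There, 4 or more members met in 35 and 51 young nuclei and in 3 and 0 old nuclei; in the caudate putamen the counts were 0 and 4 young and 1 and 0 old.

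Within dentate granule-like nuclei Igfbpl1 and Dcx fell with age, and Sox11, Sox4 and Neurod1 did not pass the test. Igfbpl1 stood at 0.643 and 1.07 CPM in the 4340 and 8586 young nuclei (27 and 93 positive) and at 0.0899 and 0.0554 CPM in the 3582 and 3089 old nuclei (4 and 2 positive). It was 11.2-fold lower (log2 -3.48, SE 0.49, edgeR adjusted p = 0.00448). Igfbpl1 passed the filter on low counts through the young libraries (31 and 112 UMIs against 4 and 2 old). A call in this class, if any, was therefore likely to be lower. In oligodendrocyte-like nuclei of the same libraries, which should lack Igfbpl1, it stood no lower, at 0.837 and 1.41 CPM young (3 and 8 UMIs) and 0.209 and 0.260 CPM old (1 and 1 UMI), and the part of free RNA in the granule result was not tested. Dcx stood at 17.2 and 18.1 CPM against 11.6 and 10.4 CPM, and was found in 13.9% and 15.9% against 10.5% and 9.42% of the nuclei (log2 -0.63, SE 0.10, edgeR adjusted p = 0.0068). In this class 3.21% of 18088 genes were called in either direction and 1.42% were called lower. Sox11 stood at 19.7 and 22.0 CPM against 21.1 and 16.6 CPM (log2 -0.10, SE 0.11, edgeR adjusted p = 0.704), with overlapping groups. Neurod1 stood at 6.60 and 8.19 CPM against 7.42 and 7.23 CPM (log2 0.03, SE 0.13, edgeR adjusted p = 0.932), and Sox4 at 4.67 and 3.97 CPM against 3.62 and 4.04 CPM (log2 -0.12, SE 0.16, edgeR adjusted p = 0.756). Calb2 stood at 0.290 and 0.591 CPM against 0.180 and 0.221 CPM (log2 -1.18, SE 0.46, edgeR adjusted p = 0.214). Both calls were lost without old replicate 1 (edgeR adjusted p = 0.126 for Igfbpl1 and 0.106 for Dcx) or old replicate 2 (0.0908 and 0.131), and their direction was kept.

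Different granule clusters held the class at 3 and at 21 months. One cluster held 1753 and 3473 young but 194 and 168 old nuclei, another 121 and 95 young but 655 and 581 old nuclei, and the shared cluster, with 1057 and 1851 young and 2075 and 1771 old nuclei, was well filled at both ages. In the shared cluster the summed level of Dcx was 18.9 CPM young and 13.6 CPM old, of Igfbpl1 0.474 and 0.0944 CPM (17 and 4 UMIs), and of Sox11 24.6 and 22.4 CPM. In the mostly young cluster Dcx stood at 27.8 CPM young and 16.2 CPM old, and Igfbpl1 had 72 UMIs young and 0 old. In the mostly old cluster Dcx stood at 8.94 CPM young and 10.0 CPM old. Summed Dcx was lower at 21 months in the shared and the mostly young cluster, and not in the mostly old one. These sums pool both libraries of an age and carry no spread, and other clusters of the class are not given here. The part of cluster make-up in the class result was not tested.

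Over all 11 hippocampal classes large enough to test, 34 pairs of member and class were tested and 4 were called, all lower, where 0.791% of all such pairs of genes were called and 0.328% were called lower. The other 2 calls were in CA1 pyramidal-like nuclei, the projection neurons of the CA1 field, where 0.696% of genes were called and 0.328% were called lower. Dcx stood there at 9.61 and 11.9 CPM against 3.43 and 4.52 CPM (log2 -1.38, SE 0.24, edgeR adjusted p = 0.0161). Sox11 stood at 8.70 and 10.1 CPM against 3.60 and 3.57 CPM (log2 -1.31, SE 0.24, edgeR adjusted p = 0.0226). Both old libraries lay well below both young ones for each gene. In oligodendrocyte-like nuclei of the same libraries, which should make little of either gene, Dcx stood at 3.35 and 6.15 CPM against 0.627 and 3.38 CPM (log2 -1.33, SE 0.63, edgeR adjusted p = 0.301). Sox11 stood there at 4.46 and 12.8 CPM against 4.39 and 3.64 CPM (log2 -1.10, SE 0.48, edgeR adjusted p = 0.262). This Sox11 level was above that of CA1 pyramidal-like nuclei in young replicate 2 and both old replicates, and below it in young replicate 1. Dcx was below the CA1 level in each library. The part of free RNA in the CA1 result was not tested. Without old replicate 1 or 2 the edgeR adjusted p was 0.386 and 0.0626 for Dcx and 0.319 and 0.105 for Sox11, and with DESeq2 that of Sox11 was 0.101.

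Dcx was tested in 8 hippocampal classes, and in 6 the age effect was not called. Of these, oligodendrocyte-like nuclei are given above, and astrocyte-like nuclei, which should lack Dcx, held 1.59 and 3.70 CPM young and 0.783 and 1.16 CPM old (log2 -1.49, SE 0.57, edgeR adjusted p = 0.288). In hippocampal interneuron-like nuclei it stood at 98.8 and 98.8 CPM in young and 98.6 and 106 CPM in old libraries (log2 0.13, SE 0.11, edgeR adjusted p = 0.869), in 68.9% to 73.5% of the nuclei. In subiculum or cortical excitatory-like nuclei it stood at 104 and 138 CPM against 132 and 160 CPM (log2 0.29, SE 0.18, edgeR adjusted p = 0.990). In nuclei like oligodendrocyte precursors (OPC), the dividing glia, it stood at 55.4 and 60.8 CPM against 75.9 and 51.8 CPM (log2 0.19, SE 0.23, edgeR adjusted p = 0.848). CA3 pyramidal-like nuclei held 19.7 and 29.8 CPM against 17.4 and 26.3 CPM (log2 -0.09, SE 0.23, edgeR adjusted p = 0.983). In the interneuron, subiculum, OPC and CA3 classes the young and old libraries overlapped.

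**Figure D3:**
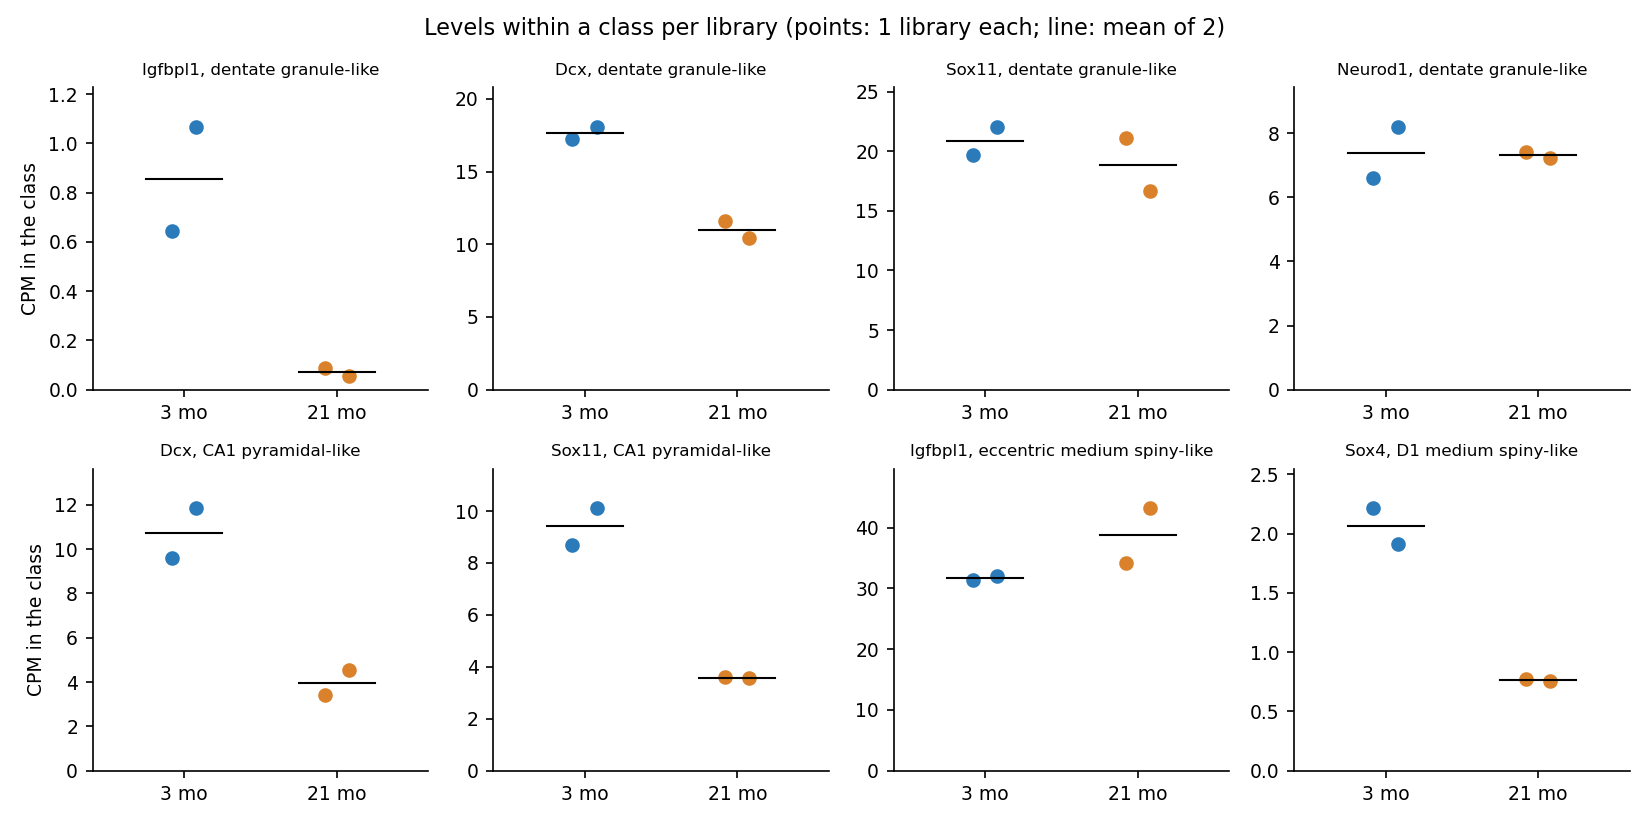
Levels of members within a class, in CPM of the class's summed counts (linear axes from 0), at 3 and 21 months (mo). Each point is 1 library and each line the mean of 2. Igfbpl1 and Dcx in dentate granule-like, Dcx and Sox11 in CA1 pyramidal-like and Sox4 in D1 medium spiny-like nuclei are lower at 21 months, while Sox11 and Neurod1 in dentate granule-like nuclei overlap between ages.

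Across the 29 classes of both regions the members had different homes, given here as descriptions because clusters and levels come from the same nuclei. CPM was not scaled by gene length, so levels are compared between classes and not between genes. Over both ages, the mean of Dcx was highest in subiculum or cortical excitatory-like nuclei at 133 ± 23.1 CPM (SD over 4 libraries), followed by Pvalb Pthlh interneuron-like nuclei of the caudate putamen (112 ± 14.3), the neuroblast-like class (106 ± 92.1 over 3 libraries) and hippocampal interneuron-like nuclei (101 ± 3.83). The ranges of these first 4 overlapped, and the last of them lay above the next, the cholinergic interneuron-like class (81.0 CPM, lowest 74.0, over 3 libraries). The neuroblast-like class held 163 and 155 CPM young, above both young subiculum-like values (104 and 138 CPM), and 0 in old replicate 1, whose nuclei of the class all fell in the astrocyte-like cluster of the finer clustering. Of its young nuclei, 87 and 82 fell in that cluster too. Levels and places of the neuroblast-like class, here and below, are those of this mixed class. OPC-like nuclei held 61.0 ± 10.6 CPM in the hippocampus and 53.3 ± 13.5 CPM in the caudate putamen, and oligodendrocyte-like nuclei 3.38 and 4.26 CPM in the same order of regions.

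Sox11 and Igfbpl1 were both highest in the neuroblast-like class. Sox11 stood there at 157 and 170 CPM young, and next in Sst Npy Nos1 interneuron-like nuclei of the caudate putamen (30.8 ± 10.4), hippocampal OPC-like (22.2 ± 1.59) and dentate granule-like nuclei (19.9 ± 2.36). Igfbpl1 stood at 161 and 124 CPM in young neuroblast-like nuclei, and next in eccentric medium spiny-like nuclei of the caudate putamen (35.2 ± 5.48), a minor kind of striatal projection neuron, and in Sst Npy Nos1 interneuron-like nuclei (24.8 ± 12.4). The interneuron class lay above the next, the choroid plexus-like class (9.21 ± 2.18 over 2 libraries), and oligodendrocyte-like nuclei held 0.678 CPM in the hippocampus and 0.361 CPM in the caudate putamen. Draxin was led by neuroblast-like nuclei at 42.8 and 36.3 CPM young, with oligodendrocyte-like nuclei of the hippocampus at 1.49 ± 0.376 CPM.

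Sox4 was high in glia as well as in neuroblast-like nuclei. Its mean over both ages was highest in OPC-like nuclei of the caudate putamen (39.7 ± 6.58) and hippocampus (36.6 ± 8.57), ahead of the neuroblast-like (32.5 ± 18.6), Cajal-Retzius-like (27.9 ± 8.82 over 3 libraries) and both microglia-like classes (26.9 ± 12.6 and 26.2 ± 5.52). None of these neighbours differed beyond its range. In young neuroblast-like nuclei alone it stood at 45.4 and 40.8 CPM, and at 11.2 CPM in old replicate 1. Microglia-like nuclei, the resident immune cells, had Sox4 in a mean of 6.60% of nuclei in the hippocampus and 6.63% in the caudate putamen, against 4.24 ± 2.42 CPM and 1.27% in hippocampal oligodendrocyte-like nuclei.

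Neurod1 was a gene of hippocampal libraries. Dentate granule-like nuclei held 64.7% and 66.9% of its positive young nuclei and 76.1% and 77.8% of its positive old nuclei, and their level was 7.36 ± 0.659 CPM. Oligodendrocyte-like nuclei, which should lack it, held 3.90 and 8.79 CPM young and 2.09 and 4.94 CPM old, below the granule level in 3 of the 4 libraries and above it in young replicate 2. In young neuroblast-like nuclei it stood higher, at 18.2 and 26.3 CPM. Calb2 had its highest class mean in Cajal-Retzius-like nuclei, a transient early-born neuron kept in small numbers, with 49.9 and 44.4 CPM in the 44 and 81 young nuclei and no UMI in the 21 and 10 old nuclei, a number of nuclei that allows up to 14.3% and 30% of them to hold a UMI at this depth (median 4489 and 3448.5 UMIs). Clusters left without a name held more of the Calb2-positive nuclei, 39.2% and 32.4% in young and 60.32% and 50.98% in old libraries, against 8.25% and 6.39% of the young ones in Cajal-Retzius-like nuclei. Mossy-like nuclei of the dentate hilus held Calb2 at 7.03 ± 0.620 CPM in the young libraries. Eomes reached 9.08 and 9.08 CPM in young neuroblast-like nuclei.

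**Figure D4:**
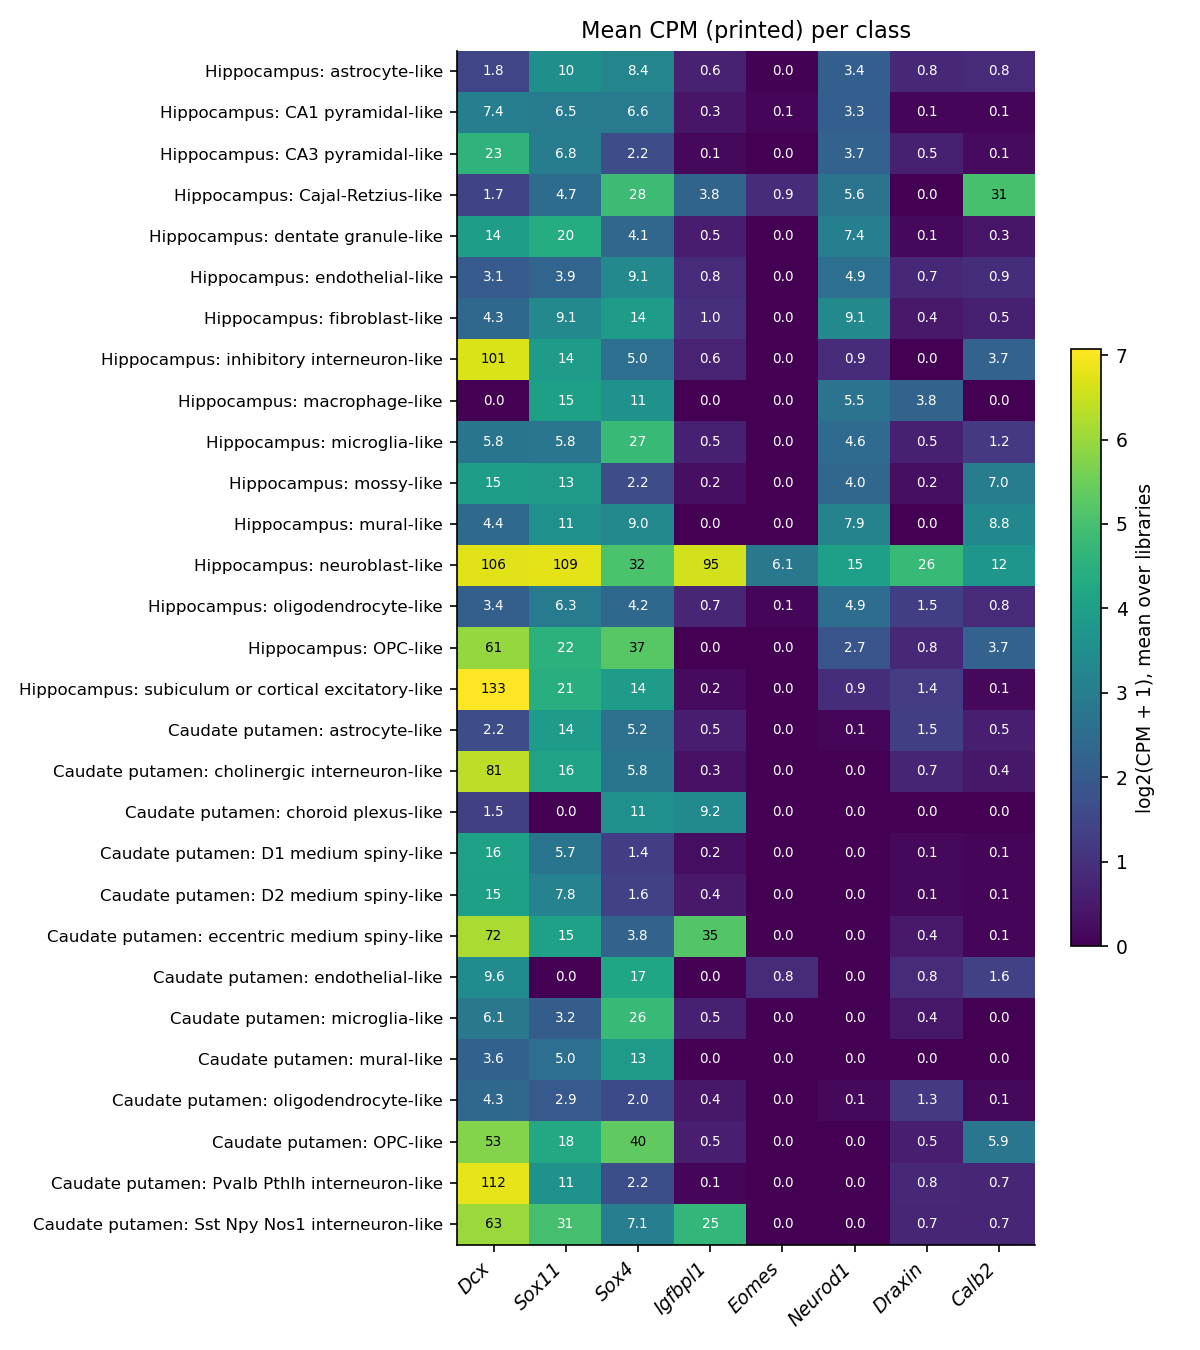
Mean level of each gene (columns) in each class of both regions (rows). Colour is log2(CPM + 1) and the printed number is the mean CPM over libraries with at least 20 nuclei. Compared between rows, the neuroblast-like row is among the highest for each gene. Igfbpl1 has a second home in the eccentric medium spiny-like and Sst Npy Nos1 interneuron-like rows.

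In the caudate putamen the age effect of Igfbpl1 was not called. It stood at 1.50 and 1.45 CPM in young and 1.57 and 1.56 CPM in old libraries (log2 0.04, SE 0.17, edgeR adjusted p = 0.934), and 142 and 189 young (1.24% and 1.31%) and 135 and 138 old nuclei (1.01% and 0.853%) held a UMI. At 2000 UMIs per nucleus the shares were 0.365% and 0.436% young and 0.368% and 0.254% old, a log2 difference of -0.38 (SE 0.27, edgeR adjusted p = 0.650), opposite in sign to that of the CPM. In that comparison 0.0783% of genes were called and 0.0418% lower. Eccentric medium spiny-like nuclei held 77, 113, 93 and 102 of these nuclei. Their level was 31.4 and 32.1 CPM young and 34.2 and 43.3 CPM old (log2 0.28, SE 0.15, edgeR adjusted p = 0.570), and 1 of the class's 2 clusters reached 64.8 CPM young and 68.3 CPM old against 18.9 and 24.3 CPM in the other. The hippocampal age effect of Igfbpl1 minus that of the caudate putamen was log2 -3.45 (SE 0.27, edgeR adjusted p = 0.0411), where 0.00886% of genes were called in either direction and 0.00443% were called lower. This call of the difference was lost without any 1 of the 8 libraries (log2 -3.73 to -3.25, edgeR adjusted p 0.135 to 0.316) and with doublets retained (adjusted p = 0.0637). In shares of positive nuclei the same difference was log2 -3.96 (SE 0.57) and was not called (edgeR adjusted p = 0.237), where 0.0% of 19152 genes were called in either direction and 0.0% lower, with 1096 under an unadjusted p of 0.05. Dcx and Igfbpl1 met in 56 and 82 young and 61 and 50 old caudate putamen nuclei, 40, 64, 55 and 43 of them eccentric medium spiny-like.

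**Figure D5:**
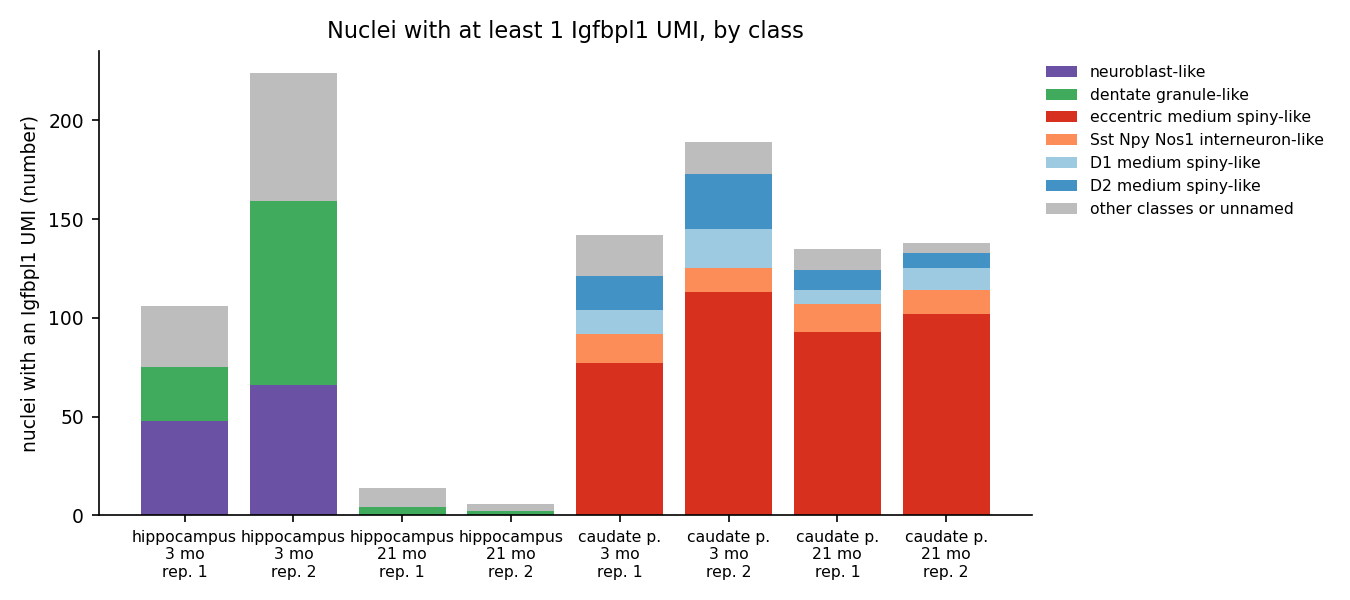
Number of nuclei with at least 1 Igfbpl1 UMI in each library, stacked by class. The hippocampal bars drop from 106 and 224 nuclei at 3 months to 14 and 6 at 21 months with no neuroblast-like part left, while the caudate putamen bars hold 135 to 189 nuclei, most of them eccentric medium spiny-like.

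For the other members the caudate putamen gave no call in all nuclei: 0 of 7 tested by edgeR, against 0.686% of genes called in either direction and 0.381% lower. Sox4 stood at 3.09 and 3.09 CPM young and 2.16 and 1.74 CPM old (log2 -0.71, SE 0.15, edgeR adjusted p = 0.0859), and Sox11 at 9.95 and 7.33 CPM against 6.78 and 5.35 CPM (log2 -0.55, SE 0.16, edgeR adjusted p = 0.148). These 2 were under an unadjusted p of 0.05 and were called by DESeq2 (adjusted p = 0.00503 and 0.0391), where 18.6% of all genes were under the unadjusted p and DESeq2 called 7.26% in either direction and 3.37% lower. Groups of both were lower in old libraries without overlap, where 19.9% of genes did the same. Dcx stood at 22.0 and 19.2 CPM against 21.5 and 14.7 CPM (log2 -0.23, SE 0.16, edgeR adjusted p = 0.475). Neurod1 and Eomes were at most 0.064 and 0.016 CPM in any caudate putamen library. Over 30 pairs of member and class in 11 classes 1 was called lower, where 1.13% of such pairs of genes were called and 0.589% lower: Sox4 in D1 medium spiny-like nuclei, the neurons of the direct pathway, with 2.22 and 1.91 CPM against 0.770 and 0.753 CPM (log2 -1.46, SE 0.20, edgeR adjusted p = 0.0292; class background 1.44% and 0.927% lower). Without 1 caudate putamen library at a time its edgeR adjusted p was 0.0761 to 0.142, and with doublets retained the value was log2 -1.08 (adjusted p = 0.324).

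Other genes of the pathway were read from 2 lists. Of 28 genes of differentiating neurons 26 were tested in all hippocampal nuclei and 0 were called by edgeR. Of these, 4 were under an unadjusted p of 0.05, as were 13.9% of all genes, and 3 of the 4 were lower. DESeq2, which called 3.43% of all genes in either direction and 1.33% lower, called 1 of the list, Dpysl5, a collapsin response mediator protein (23.5 and 26.5 CPM against 18.3 and 16.3 CPM, log2 -0.54, edgeR adjusted p = 0.0749). The list's median log2 fold change was -0.15, against -0.01 for all genes. Of 18 genes of stem cells and dividing progenitors 17 were tested and 0 were called by edgeR, with 3 under an unadjusted p of 0.05, 1 of them lower, and a median of 0.07. DESeq2 called 2 of them higher: Sox2 (12.9 and 8.94 CPM against 21.1 and 16.3 CPM, edgeR adjusted p = 0.238) and Lpar1 (11.1 and 9.69 CPM against 20.2 and 16.9 CPM, edgeR adjusted p = 0.0978), both also expressed by mature glia, whose oligodendrocyte-like share was larger in the old libraries; the part of cell make-up in these values was not tested. In the caudate putamen edgeR called 0 of either list, against 0.686% of all genes, with 5 and 2 under an unadjusted p of 0.05, where 18.6% of all genes were. DESeq2, which called 7.26% of all genes there and 3.37% lower, called Mex3b and Dpysl3 lower and Tubb2b, Sox2 and Lpar1 higher.

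Nuclei could also be split by sex within a library, from Xist and 4 Y-linked genes, which left 9236 of 42294 hippocampal nuclei (21.8%) unassigned. Each of the 4 young library and sex groups held 1.08% to 1.94% neuroblast-like nuclei and each of the 4 old ones 0.117% to 0.419%, the old nuclei being those of the astrocyte-like cluster described above. Igfbpl1-positive nuclei at full depth made up 1.01% to 1.65% against 0.0601% to 0.279%, and Dcx-positive nuclei 14.1% to 16.9% against 8.27% to 11.4%. These shares are at full depth, and the median depth of the groups was 6875 to 9512.5 UMIs. Male and female nuclei of 1 library share a preparation and were not tested as replicates.

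The genes whose pattern over the 29 classes was most like that of a member were read from 15703 genes with at least 10 CPM in 1 class, as Pearson's r over class means, which share their libraries. For Dcx these were Frmd3 (r = 0.905), Sh3rf3 (0.866) and A430010J10Rik (0.862). For Neurod1 they were Neurod2 (0.930), C1ql2 (0.918) and Slc30a3 (0.914), of which C1ql2 is a naming marker of dentate granule-like nuclei. Igfbpl1 was most like 6430553K19Rik (0.779), Lemd1 (0.706) and Drd3 (0.678), and Draxin like Tfap2c (0.829), Top2a (0.758) and 6430553K19Rik (0.740). For Sox11 they were Gm17167 (0.763), Pnma3 (0.732) and Gm10558 (0.722), for Sox4 Tnpo1 (0.814), Zmym4 (0.788) and Pofut1 (0.779), and for Calb2 Tspan11 (0.767), Gm16838 (0.737) and Mfap2 (0.715). Eomes stayed under 10 CPM in every class and was not compared.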

How the data were processed

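Single-nucleus libraries were read from the deposited matrices of raw UMI counts per gene and barcode, whole numbers without normalization. Cell Ranger 6.1.2 made 7 of the matrices and 7.0.0 made 1 (young caudate putamen replicate 2), per the file headers. The submitters' processing notes name Cell Ranger 4.0.0 and mm10. Whether intronic reads were counted is not given in the sources used here. Later major versions of Cell Ranger count them by default, so young caudate putamen replicate 2 may be counted differently from the others. Without it, Sox4 in D1 medium spiny-like nuclei and the difference of regions were no longer called, and the hippocampal calls held. Nuclei with under 500 genes or over 5% mitochondrial UMIs and Scrublet doublets were removed, leaving 97740 of 109826 barcodes. Where the automatic Scrublet threshold called over 3 times the expected share, the expected share was used. Each region was clustered without the 8 genes (scanpy 1.11.5, 3000 variable genes, 40 components, 20 neighbours, Leiden resolution 1.0). Clusters were named "X-like" from listed markers, and the limits for a name were chosen after seeing the data, with tables of classes by library in view. Unnamed clusters hold 5054 nuclei. UMIs summed per library, or per library and class with at least 20 nuclei, were tested with edgeR 4.0.16 (quasi-likelihood, TMM, filterByExpr), with 1 mean per group, Benjamini-Hochberg adjustment over all genes tested and a threshold of 0.05. The fit of all nuclei and of glial classes used all 8 libraries, and of other classes the 4 of a region. Shares of positive nuclei used nuclei thinned to 2000 UMIs. DESeq2 1.42.0 and the settings of the closing section were alternatives. The fit was tested on simulated data. All 8 members are named, with the 3 genes most alike to each, and listed genes that passed a test. The members and lists were chosen with earlier results of these data known.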

Additional observations from a re-analysis of the deposited data

Results flagged for a closer look

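Igfbpl1 differed between the regions in its change with age: its level in hippocampal nuclei fell and its level in caudate putamen nuclei was not called, and the hippocampal minus the caudate putamen effect was -3.45 on the log2 scale (edgeR adjusted p = 0.0411). The call was lost without any 1 library (adjusted p = 0.135 to 0.316) and with doublets retained (0.0637), and in shares of positive nuclei the difference was -3.96 (edgeR adjusted p = 0.237). Both old hippocampal libraries lay below both young ones, and all 4 caudate putamen libraries lay within 1.45 to 1.57 CPM.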

How the results depend on the processing

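Each comparison rests on 2 libraries against 2, and each library mixes 2 animals. In all hippocampal nuclei the count of members called was 1, and 0 to 1 with a library left out. Over the alternatives that kept all libraries it was 1, with 10 to 624 genes called in all against 31. In all caudate putamen nuclei it was 0, with DESeq2 2 and with the replicate block 1 (Sox4, edgeR adjusted p = 0.050), and 0 with any library left out. Genes called there ranged from 0 to 1290 against 155. The difference of the regions was called for 1 member, for 0 with doublets retained and 0 with any library left out, and genes called ranged from 0 to 141 against 2. Shares of positive nuclei gave 1 member, but 0 when thinned to 4000 UMIs (Igfbpl1 log2 -3.26, edgeR adjusted p = 0.0637), 0 with at least 2 UMIs per nucleus (log2 -6.76, adjusted p = 0.111), 2 with the replicate block or without a filter on low counts (Dcx added), and 0 to 2 with a library left out; genes called ranged from 0 to 753 against 25. Hippocampal classes gave 4 calls, 3 to 6 under other settings and 0 to 6 with a library left out. Caudate putamen classes gave 1 call, 2 without a filter on low counts, 5 with the replicate block (Sox11 in D1 and Dcx, Sox11 and Sox4 in D2 medium spiny-like nuclei added), 0 with doublets retained and 0 to 1 with a library left out. For the classes of both regions, the share of all gene and class pairs called under each alternative is not given here. The changes in these counts are therefore not read as a result about the members. The neuroblast-like difference kept its direction in all settings tried (-1.29 to -0.647 points).

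Values that changed sign were all uncalled. With doublets retained the caudate putamen log2 values were -0.0427 for Igfbpl1, 0.0050 for Neurod1 and -0.0367 for Draxin. With 1 library left out, Neurod1 ranged from -0.430 to 0.0837 in the hippocampus (above 0 without young replicate 2) and from -1.80 to 2.10 in the caudate putamen (above 0 without young replicate 1 or old replicate 2), and Draxin there from -0.174 to 0.599 (below 0 without young replicate 2 or old replicate 1). The difference of regions ranged from -2.30 to 1.62 for Neurod1, from -0.157 to 0.127 for Calb2 and from -0.406 to 0.0750 for Dcx, each above 0 without old caudate putamen replicate 1, Neurod1 and Calb2 also without young replicate 2 of either region, and Calb2 without old hippocampal replicate 1. The cause was not tested. The replicate numbers are shared by the groups but nothing in the labels says that they pair the libraries: deviations of same-numbered libraries correlated at 0.320 between hippocampal ages, 0.571 between caudate putamen ages and 0.115 to 0.187 across regions. The replicate block changed no other call of a member.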
